A study of Mus musculus with 16 samples.

Results

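A set of 10 genes of fatty acid uptake and re-esterification, the steps by which an enterocyte takes up dietary fatty acids and builds triglyceride from them, were followed in the terminal ileum of mice fed ethanol (EtOH) or a control diet. These genes were Fabp1, Fabp2, Cd36, Slc27a4, Acsl3, Acsl5, Dgat1, Dgat2, Mogat2 and Plin2, chosen by their known function as the rows of the raw count table whose Ensembl ID carries one of these 10 symbols, out of 21965 genes in the table. All 10 passed the filter on low counts, as did 13811 genes in all. RNA was sequenced from 16 male C57BL/6 mice with 1 library per mouse: 4 wild-type pair-fed mice (WT PF), 4 fat-1 pair-fed mice (fat-1 PF), 3 wild-type mice on EtOH (WT EtOH) and 5 fat-1 mice on EtOH (fat-1 EtOH). The fat-1 mice, which the sample labels write as Fat1+/-, were heterozygous carriers of the C. elegans n3 desaturase fat-1, a transgene expressed in all tissues that converts n6 into n3 polyunsaturated fatty acids. Reads of the transgene were not analysed here. The WT mice were littermates without it. All mice received a Lieber-DeCarli liquid diet. EtOH rose in steps to a final 6% (v/v) that was held for 3 weeks, and the pair-fed mice received the same calories with maltose dextrin in place of EtOH. The comparisons ask how EtOH changed these genes in each genotype, and how the genotypes differed on each diet.

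In the small intestine, fatty acids freed in the lumen enter the absorptive cells of the villus, are bound in the cytosol by fatty acid binding proteins, and are activated to acyl-CoA by acyl-CoA synthetases. Monoacylglycerol acyltransferase and diacylglycerol acyltransferase then join acyl-CoA to monoacylglycerol and diacylglycerol, and the triglyceride leaves the cell in chylomicrons or is held for a time in cytosolic lipid droplets. Most fat is absorbed in the proximal small intestine, and the ileum takes up much less of it and is the site of bile acid reabsorption.

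Fabp1 and Fabp2 encode the binding proteins of the enterocyte and fell to very different extents in fat-1 EtOH mice. Acsl3 and Plin2 are members that the main edgeR fit with all mice did not call in any comparison. For this reason the RefSeq promoter windows (250 bases before the start, GRCm38.p6) of these 4 genes are shown. Each is printed 5′ to 3′ on the strand of its gene, from upstream of the first exon of the annotation, and capitals mark the nuclear receptor half-site AGGTCA, read here as TGACCT on the opposite strand.

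Fabp1, chr6:71199629-71199826, plus strand: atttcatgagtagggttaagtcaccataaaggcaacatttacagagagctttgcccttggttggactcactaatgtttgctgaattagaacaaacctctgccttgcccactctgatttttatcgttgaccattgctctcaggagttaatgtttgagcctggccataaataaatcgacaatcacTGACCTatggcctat

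Fabp2, chr3:122894822-122895071, plus strand: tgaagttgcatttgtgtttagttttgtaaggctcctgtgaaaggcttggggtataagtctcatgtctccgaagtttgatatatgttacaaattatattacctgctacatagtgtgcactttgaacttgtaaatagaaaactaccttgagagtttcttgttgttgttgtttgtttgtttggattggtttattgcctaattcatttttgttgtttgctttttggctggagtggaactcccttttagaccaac

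Acsl3, chr1:78657575-78657824, plus strand: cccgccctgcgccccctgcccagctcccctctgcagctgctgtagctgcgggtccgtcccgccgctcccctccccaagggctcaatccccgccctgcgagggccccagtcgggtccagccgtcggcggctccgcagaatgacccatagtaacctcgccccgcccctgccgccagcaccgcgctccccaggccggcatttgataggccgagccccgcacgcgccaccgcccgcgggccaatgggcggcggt

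Plin2, chr4:86670061-86670309, minus strand: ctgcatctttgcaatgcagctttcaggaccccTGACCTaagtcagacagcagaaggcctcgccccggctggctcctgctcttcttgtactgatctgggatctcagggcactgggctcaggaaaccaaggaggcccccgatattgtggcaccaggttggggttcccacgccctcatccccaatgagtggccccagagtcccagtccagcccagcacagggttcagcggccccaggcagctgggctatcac

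Promoter windows were given for 7 of the 10 genes, and 3 of these 7 (Fabp1, Cd36 and Plin2) held AGGTCA on either strand, against 14.02% of all 32851 windows. The Fabp1 window held it at 67 and at 9 bases before the RefSeq start, the latter beyond the stretch printed, since the RefSeq start lies inside the first exon of the annotation. A TATAAA sequence 30 bases before that start was found for Fabp1 only among the 7, and in 12.4% of all windows. The GATA sequences AGATAA and TGATAA (9.99% and 7.94% of all windows) and the HNF4 sequence CAAAGTCCA (0.384%) were in none of the 7. The Acsl3 window was 75.6% G and C and the Fabp2 window 35.6%, on either side of the median of all windows, 52.4%. Such matches describe the letters of these windows, and binding was not measured here.

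Libraries held 8422645 to 11438539 counted reads, and the lowest count of any member in any mouse was 69. By the marker genes of gut regions, 5 libraries stood apart from their groups. The libraries of fat-1 EtOH replicates 3 and 4 had 11157 and 12208 CPM (a gene's count scaled to the adjusted size of its library) of Car1, a carbonic anhydrase of the large intestine, and 1.89 and 1.43 CPM of Olfm4, a marker of small intestinal crypts, against 185 to 510.2 CPM of Olfm4 in the other EtOH-fed mice. WT EtOH replicate 2 had 4041 CPM of Car1 with 185 CPM of Olfm4. In the remaining 13 mice Car1 lay between 0 and 79.1 CPM. Fat-1 PF replicates 2 and 4 had 7.58 and 3.56 CPM of Slc10a2, the ileal bile acid transporter, where no other mouse had less than 394 CPM, so that in these libraries this defining marker of the ileum was nearly absent, and Fabp6, the ileal bile acid binding protein, was at 26.1 and 3.31 CPM. The fold changes and ratios of the members were also computed without the first 3, without the last 2 and without all 5 of these libraries.

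The markers of gut regions moved with the diet. The 8 proximal small intestine markers summed to 4152 to 18092 CPM in WT PF and 13093 to 51880 CPM in fat-1 PF mice, but to 1952 to 2240 CPM in WT EtOH and 215 to 2212 CPM in fat-1 EtOH mice. Of these 8 genes, 3 fell in WT EtOH mice and 7 in fat-1 EtOH mice, and none rose. Of the 5 ileal markers tested of 6 listed, none was called in either comparison. The 8 large intestine markers tested of 9 included 5 that rose in fat-1 EtOH mice and none called in WT EtOH mice, and their summed level was 133 to 234 CPM in every PF mouse, 190.0 to 4956 CPM in WT EtOH mice and 196 to 13203 CPM in fat-1 EtOH mice. The 7 markers of all intestinal epithelium summed to 13517 to 17566 CPM in PF mice and to 11158 to 15938 CPM in the EtOH-fed mice other than fat-1 EtOH replicates 3 and 4, which had 8312 and 8138 CPM. All 6 smooth muscle markers rose in fat-1 EtOH mice, with sums of 906 to 1434 CPM in PF and 1859 to 4042 CPM in EtOH-fed mice. The epithelium list held 1 gene that rose and 2 that fell in fat-1 EtOH mice. In the adipocyte list of 7, 2 fell in these mice and the other 5 had positive fold changes that were not called (median log2 of the list 0.93). No gene of the endothelium (6), macrophage (6) or crypt (4) lists was called in either diet comparison. No marker of these lists was at 0 in every library of a group. The part that the gut region sampled and the makeup of the tissue had in the results below was not tested, and in whole tissue fewer cells of a type cannot be told apart from less RNA per cell.

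**Figure D1:**
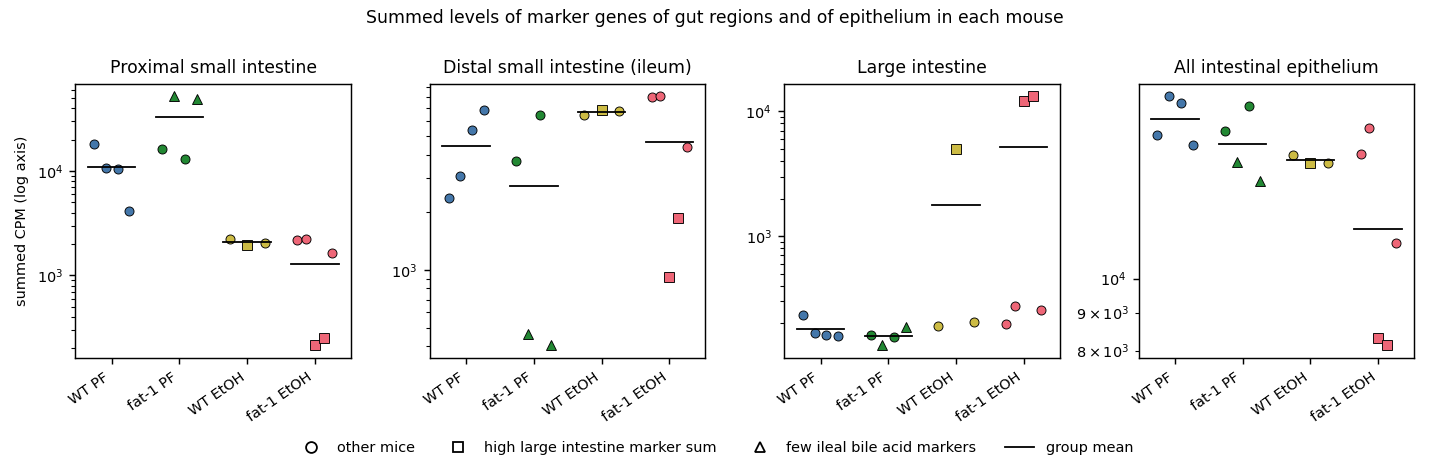
Summed CPM (log axis) of marker genes of the proximal small intestine, the ileum, the large intestine and all intestinal epithelium, 1 point per mouse in each of the 4 groups, with the group mean as a line. Squares are the 3 EtOH libraries with large intestine marker sums of 4956 to 13203 CPM, and triangles are the 2 fat-1 PF libraries whose ileal sums were 461 and 405 CPM.

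On the plot of marker sums, the proximal markers separated the diets without overlap. The WT PF mouse with the lowest proximal sum, replicate 4 (4152 CPM), had the highest ileal sum of its group (6808 CPM).

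Per kilobase of exon, Fabp2 was the most abundant member in every group, at 8523 ± 3153 CPM per kb in WT PF mice (SD, n = 4), 10546 ± 2579 in fat-1 PF mice (n = 4), 2627 ± 445 in WT EtOH mice (n = 3) and 1888 ± 943 in fat-1 EtOH mice (n = 5). Fabp1 came next in PF mice, at 1193 ± 1167 CPM per kb in WT and 7495 ± 6018 CPM per kb in fat-1 mice. Acsl5 (373 ± 83.9), Slc27a4 (292 ± 57.9), Dgat1 (267 ± 61.2) and Mogat2 (242 ± 48.8) followed in WT PF mice, each within 1 SD of its neighbour in the order, as Fabp1 also was of Acsl5. Dgat2 (94.8 ± 6.37 CPM per kb) stood below these and above Plin2 (21.7 ± 1.75), Cd36 (19.1 ± 5.81) and Acsl3 (8.98 ± 0.639), of which Plin2 and Cd36 did not differ beyond their spread. On EtOH the order changed for Fabp1, which stood in the 9th place of 10 in WT EtOH mice (17.2 ± 3.80 CPM per kb) and in the last in fat-1 EtOH mice (19.3 ± 6.42). These low places did not differ beyond their spread from Cd36 in either group (17.97 ± 7.16 and 21.8 ± 13.9 CPM per kb) nor from Acsl3 in WT EtOH mice (17.2 ± 11.5).

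Together the 10 genes took 1.28% ± 0.341 of all counted reads in WT PF mice and 1.90% ± 0.295 in fat-1 PF mice (n = 4 each). On EtOH their share was 0.532% ± 0.0733 in WT mice (n = 3) and 0.428% ± 0.151 in fat-1 mice (n = 5). The lowest PF mouse, WT PF replicate 4, had 0.793%, above the highest EtOH-fed mouse at 0.612%. Fabp2 alone made up 0.767% of the reads in WT PF mice and 0.263% in WT EtOH mice.

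Most of these genes were lower on EtOH in fat-1 mice. In edgeR's quasi-likelihood test, with p-values adjusted after Benjamini and Hochberg over all 13811 genes, 7 of the 10 fell in fat-1 EtOH compared with fat-1 PF mice (Fabp1, Fabp2, Slc27a4, Acsl5, Dgat1, Dgat2 and Mogat2) and none rose, in a comparison where 18.8% of all genes tested fell and 18.7% rose. The 3 others were Cd36, Acsl3 and Plin2. The median log2 fold change of the members was -2.06, against 0.05 over all genes tested. In the same 7 genes every fat-1 EtOH mouse lay below every fat-1 PF mouse, an arrangement found in 13.4% of all genes tested, and no member had it in the other direction, against 10.6% of all genes. With upper-quartile scaling the median over all genes moved to 0.20 and the calls over all genes to 1753 lower and 3906 higher, from 2592 and 2578, while the number of members called lower stayed at 7.

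In WT mice the same 7 genes were lower in every EtOH-fed mouse than in every PF mouse, which held for 12.1% of all genes tested, and Acsl3 was higher in every EtOH-fed mouse, which held for 12.2%. None of the 10 passed edgeR's test in WT EtOH compared with WT PF mice, where 11 of all genes did (0.0796%). At an unadjusted p under 0.05 there were 3 members (Fabp1, Fabp2 and Dgat2) and 1953 of all genes, or 14.1%. The median log2 fold change of the members was -0.92, against 0.01 over all genes. DESeq2 called 2 members lower, beside 1.25% of all genes, limma voom with sample quality weights 6, beside 10.6%, and edgeR fitted to these 2 groups alone 6, beside 4.29%, so that the call in WT mice depended on the test. Averaged over both genotypes, edgeR called the same 7 members lower on EtOH and none higher, beside 17.6% of all genes called lower and 18.3% called higher. The interaction of genotype and diet was not significant for any member or for any of the 13811 genes (0% called), so that the larger fold changes in fat-1 mice are not shown to differ from those in WT mice.

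**Figure D2:**
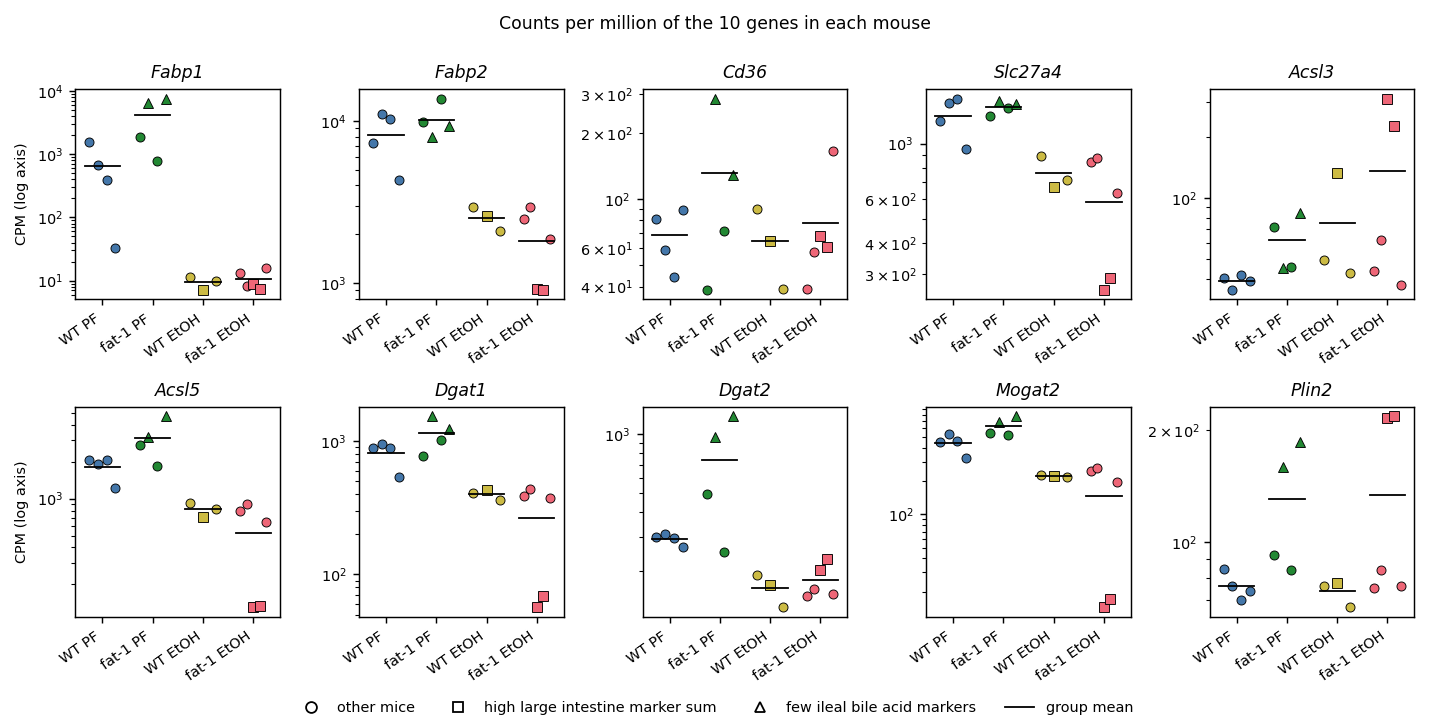
CPM on log axes of the 10 genes in each of the 16 mice, by group, with the group mean as a line. Squares are the 3 EtOH libraries with high large intestine markers, triangles the 2 fat-1 PF libraries with few ileal bile acid markers, and Fabp1 lies at 7.24 to 15.7 CPM in all EtOH-fed mice against 32.9 to 7519.8 CPM in PF mice.

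**Figure D3:**
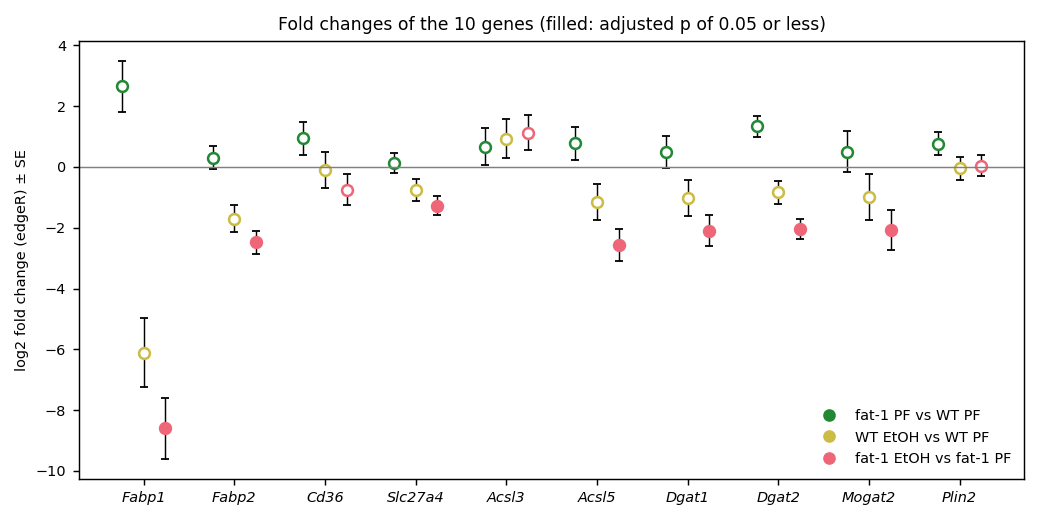
The log2 fold changes of the 10 genes with their standard errors (edgeR) between fat-1 PF and WT PF, WT EtOH and WT PF, and fat-1 EtOH and fat-1 PF mice. Filled points passed an adjusted p of 0.05, which 7 genes did, all of them lower in fat-1 EtOH mice, with Fabp1 at -8.60.

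The plot of CPM by mouse gives the values behind these calls, and the plot of fold changes sets the 3 comparisons side by side for each gene. The comparisons on the left and the right of each gene share the fat-1 PF mice, and those on the left and in the middle share the WT PF mice.

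Fabp1 and Fabp2 encode the cytosolic fatty acid binding proteins of the enterocyte. Fabp1 (ENSMUSG00000054422, chr6:71199827-71205023), the liver type, is shared with hepatocytes, and Fabp2 (ENSMUSG00000023057, chr3:122895072-122899506), the intestinal type, is expressed along the length of the small intestine. Fabp1 stood at 1544, 676, 386 and 32.9 CPM in the WT PF mice and at 1865, 6429, 766 and 7519.8 CPM in the fat-1 PF mice. In the WT EtOH mice it was 11.4, 7.24 and 9.998 CPM, and in the fat-1 EtOH mice 13.1, 8.16, 9.02, 7.40 and 15.7 CPM. The diets did not overlap, and among PF mice Fabp1 varied more than any other member, from WT PF replicate 4, which also had the lowest proximal marker sum, to fat-1 PF replicates 2 and 4, which had the highest. Fabp1 fell 388-fold in fat-1 EtOH mice (log2 fold change -8.60, SE 1.01, adjusted p = 0.00022). In WT EtOH mice its fitted level was 69.0-fold lower (log2 fold change -6.11, SE 1.14, adjusted p = 0.0656), and leaving out single mice gave -6.51 without WT PF replicate 4, which passed the test (adjusted p = 0.00509), to -5.24 without WT PF replicate 1 (adjusted p = 0.139). It also passed without fat-1 PF replicate 3, at -6.10 (adjusted p = 0.0495). Without fat-1 PF replicates 2 and 4 the fold change in fat-1 mice was -6.94 (adjusted p = 0.00447).

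Fabp2 was 7324, 10993, 10253 and 4328 CPM in WT PF, 9844, 7916, 13709 and 9239 CPM in fat-1 PF, 2941, 2577 and 2086 CPM in WT EtOH and 2474, 2930.2, 913, 912 and 1880.3 CPM in fat-1 EtOH mice. Every EtOH-fed mouse was below every PF mouse, and the lowest 2 were fat-1 EtOH replicates 3 and 4. It fell 5.59-fold in fat-1 EtOH mice (log2 fold change -2.48, SE 0.37, adjusted p = 0.000429) and was 3.24-fold lower in WT EtOH mice (-1.70, SE 0.44, adjusted p = 0.162).

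The ratio of Fabp1 to Fabp2 counts within a mouse does not depend on how libraries are scaled. It was 0.211, 0.0615, 0.0376 and 0.00762 in WT PF mice and 0.189, 0.812, 0.0559 and 0.814 in fat-1 PF mice, and at most 0.00992 in EtOH-fed mice. Between fat-1 EtOH and fat-1 PF mice its mean log2 value differed by -5.52 (exact two-sided permutation p = 0.0159, the smallest possible with 5 and 4 mice, and 0.0952 after adjustment over 12 tests). In WT mice the difference was -3.55 (exact p = 0.0571, the smallest possible with 3 and 4 mice, adjusted 0.171). Without fat-1 PF replicates 2 and 4 the difference in fat-1 mice was -4.03 (adjusted exact p = 0.286), where the mice left were too few for any exact p under 0.05. Replicate 4 of the WT PF mice, at 0.00762, lay inside the range of the EtOH-fed mice of fat-1 genotype.

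**Figure D4:**
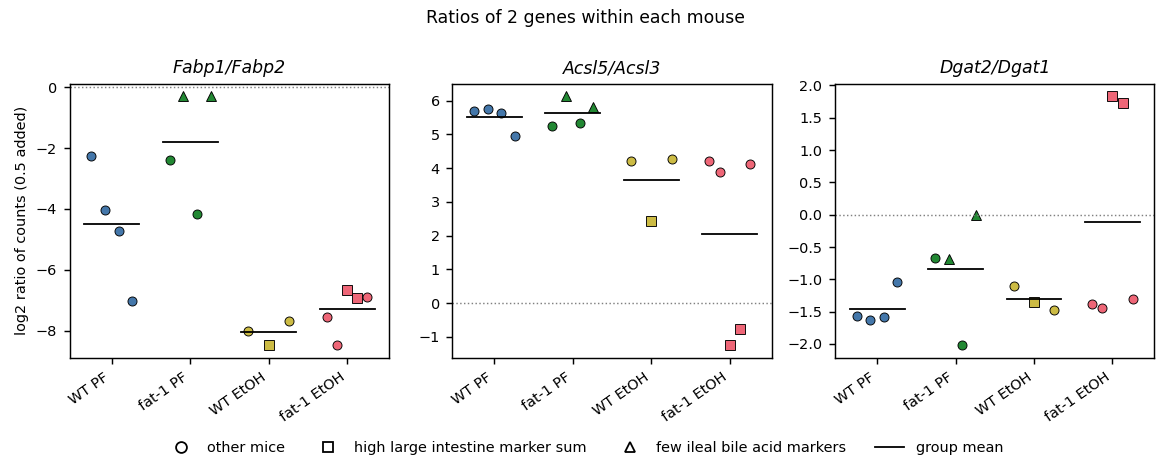
The log2 ratio of counts (0.5 added to each) of Fabp1 to Fabp2, Acsl5 to Acsl3 and Dgat2 to Dgat1 in each mouse, by group, with the group mean as a line. Dotted lines mark equal counts, squares the 3 EtOH libraries with high large intestine markers and triangles the 2 fat-1 PF libraries with few ileal bile acid markers, and no difference passed the adjusted exact test (lowest adjusted p 0.0952).

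Across the 3 panels of ratios, the Acsl5 to Acsl3 and Dgat2 to Dgat1 ratios of fat-1 EtOH replicates 3 and 4 lay far from those of the other 3 mice of their group, whereas for Fabp1 to Fabp2 replicate 4 lay among them and replicate 3 just above, at 0.00992 against at most 0.00835.

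Of the membrane proteins of fatty acid uptake, Slc27a4 (ENSMUSG00000059316, chr2:29802634-29817522) encodes FATP4, an acyl-CoA synthetase that drives uptake in enterocytes, and Cd36 (ENSMUSG00000002944, chr5:17781690-17888801) a scavenger receptor that also marks capillary endothelium, adipocytes and macrophages. Slc27a4 was 1229, 1454, 1514 and 952 CPM in WT PF and 1294, 1480.0, 1389 and 1444 CPM in fat-1 PF mice. On EtOH it was 893, 673 and 714 CPM in WT mice and 848, 875, 260.5, 289.6 and 633 CPM in fat-1 mice, without overlap between the diets. It fell 2.41-fold in fat-1 EtOH mice (log2 fold change -1.27, SE 0.31, adjusted p = 0.00637), and in WT EtOH mice its fold change was -0.76 (SE 0.36, adjusted p = 0.361). Without fat-1 PF replicates 2 and 4 it was not called in fat-1 mice (-1.20, adjusted p = 0.0634).

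Cd36 did not separate the diets. It was 81.6, 58.5, 44.3 and 89.7 CPM in WT PF, 38.8, 287, 71.9 and 129 CPM in fat-1 PF, 90.3, 64.5 and 38.8 CPM in WT EtOH and 39.1, 57.7, 68.1, 60.4 and 166 CPM in fat-1 EtOH mice. Its log2 fold change on EtOH was -0.75 in fat-1 mice (95% interval -1.85 to 0.35) and -0.09 in WT mice (-1.35 to 1.18), and without fat-1 PF replicates 2 and 4 the former turned to 0.50 (adjusted p = 0.498). The highest Cd36 value of the EtOH-fed mice was that of fat-1 EtOH replicate 5, which also had the highest sums of all 16 mice for endothelial (132 CPM against 38.0 to 64.3 CPM), macrophage (263 CPM against 56.9 to 195 CPM) and adipocyte markers (778 CPM against 187 to 571 CPM), and the part of these cells in the Cd36 level was not tested.

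Among the acyl-CoA synthetases, Acsl5 (ENSMUSG00000024981, chr19:55251938-55297720) is the main form of the small intestinal epithelium, and Acsl3 (ENSMUSG00000032883, chr1:78657825-78707743) is bound to the endoplasmic reticulum and to nascent lipid droplets. Acsl5 was 2061, 1915, 2072 and 1212 CPM in WT PF, 2728, 3157, 1834 and 4714 CPM in fat-1 PF, 918, 713 and 826 CPM in WT EtOH and 797, 913, 131, 133 and 643 CPM in fat-1 EtOH mice. All EtOH-fed mice were below all PF mice, with fat-1 EtOH replicates 3 and 4 the lowest. Acsl5 fell 5.94-fold in fat-1 EtOH mice (log2 fold change -2.57, SE 0.52, adjusted p = 0.00219), while in WT EtOH mice its fold change was -1.15 (SE 0.59, adjusted p = 0.395). Without the 3 libraries with large intestine markers the fall in fat-1 mice was -1.95 (adjusted p = 0.00208). Of its 75-base windows, 3.11% also occur in Zdhhc6, a gene on the opposite strand whose last exons overlap it, and the use of strand in the counting was not given in the sources used here.

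Acsl3 was the only member whose mean level on EtOH was higher than on the PF diet in both genotypes. The main edgeR fit with all mice called it in no comparison. For EtOH averaged over the genotypes, it alone had a positive fold change in that fit (log2 1.04, SE 0.43, adjusted p = 0.0755). DESeq2 called 1 member higher there, beside 19.7% of all genes. The values of Acsl3 were 40.2, 35.3, 41.9 and 39.1 CPM in WT PF, 72.2, 45.2, 45.6 and 84.3 CPM in fat-1 PF, 49.4, 133 and 42.7 CPM in WT EtOH and 43.5, 61.8, 310.5, 226 and 37.3 CPM in fat-1 EtOH mice. The 3 highest mice were those with the large intestine markers. With them the log2 fold change was 1.14 in fat-1 mice (SE 0.58, adjusted p = 0.138) and 0.94 in WT mice (SE 0.65, adjusted p = 0.527). Without them it was -0.35 in fat-1 mice (adjusted p = 0.255) and 0.23 in WT mice (adjusted p = 0.653). Acsl3 shares 3.00% of its 75-base windows with Utp14b on the same strand.

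Acsl5 counts were 51.2, 54.2, 49.4 and 31.0 times those of Acsl3 in WT PF mice and 37.8, 69.7, 40.1 and 55.9 times in fat-1 PF mice. On EtOH the ratio was 18.6, 5.37 and 19.3 in WT mice and 18.3, 14.8, 0.421, 0.588 and 17.2 in fat-1 mice, so that every EtOH-fed mouse was below every PF mouse and fat-1 EtOH replicates 3 and 4 held more Acsl3 than Acsl5 reads. The log2 ratio differed between EtOH and PF by -3.59 in fat-1 mice (exact two-sided permutation p = 0.0159, adjusted 0.0952) and by -1.87 in WT mice (exact p = 0.0571, adjusted 0.171). Without the 3 libraries with large intestine markers these differences were -1.56 and -1.26 (adjusted exact p = 0.343 for each). With the mice then left, the exact test could give no p under 0.05 for any values, so these p-values decide nothing.

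The acyltransferases that complete triglyceride are Mogat2 (ENSMUSG00000052396, chr7:99219084-99238619), which makes diacylglycerol from the absorbed monoacylglycerol, and Dgat1 (ENSMUSG00000022555, chr15:76502015-76511953) and Dgat2 (ENSMUSG00000030747, chr7:99153658-99182719), which are unrelated in sequence and add the last acyl chain. Mogat2 and Dgat2 lie next to each other on the same strand of chromosome 7. Mogat2 was 455, 535, 465 and 321 CPM in WT PF, 545, 679, 523 and 775 CPM in fat-1 PF, 227, 221 and 217 CPM in WT EtOH and 248, 265, 14.5, 17.0 and 197 CPM in fat-1 EtOH mice. It was lower in every EtOH-fed than in every PF mouse, and in fat-1 EtOH replicates 3 and 4 it was an order of magnitude below the rest of its group. Mogat2 fell 4.26-fold in fat-1 EtOH mice (log2 fold change -2.09, SE 0.66, adjusted p = 0.0232). This call was lost without fat-1 PF replicate 4 (adjusted p = 0.0535), without both replicates 2 and 4 (-1.84, adjusted p = 0.135) and in a fit of the fat-1 groups alone (adjusted p = 0.0933), whereas without the 3 libraries with large intestine markers it was -1.38 with an adjusted p of 0.00195. In WT EtOH mice the fold change was -1.001 (SE 0.76, adjusted p = 0.569).

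The group means of Dgat1 had the same order as those of Mogat2. Dgat1 was 883, 959.6, 884 and 542 CPM in WT PF, 780.2, 1542, 1021 and 1245 CPM in fat-1 PF, 409.8, 433 and 363 CPM in WT EtOH and 391, 440.2, 57.0, 69.4 and 378 CPM in fat-1 EtOH mice. It fell 4.30-fold in fat-1 EtOH mice (log2 fold change -2.10, SE 0.51, adjusted p = 0.00605), and its fold change in WT EtOH mice was -1.02 (SE 0.59, adjusted p = 0.44). Without the 3 libraries with large intestine markers it fell in fat-1 mice with a fold change of -1.48 (adjusted p = 0.00209), and without fat-1 PF replicates 2 and 4 it was not called (-1.74, adjusted p = 0.0753).

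Dgat2 was 299, 310.4, 295 and 264 CPM in WT PF, 493, 963, 252 and 1238 CPM in fat-1 PF, 191, 169 and 131 CPM in WT EtOH and 150.1, 162, 203, 230.3 and 153 CPM in fat-1 EtOH mice. The diets did not overlap, but unlike for Dgat1 and Mogat2 the highest fat-1 EtOH values were those of replicates 3 and 4. As for Dgat1 and Mogat2, the 2 highest PF values were those of fat-1 PF replicates 2 and 4. Dgat2 fell 4.10-fold in fat-1 EtOH mice (log2 fold change -2.04, SE 0.33, adjusted p = 0.000639) and had a fold change of -0.84 in WT EtOH mice (SE 0.38, adjusted p = 0.342). Without fat-1 PF replicates 2 and 4 the fall in fat-1 mice was -1.05 (adjusted p = 0.0159).

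Dgat2 counts were 0.339, 0.324, 0.333 and 0.488 of those of Dgat1 in WT PF mice and 0.632, 0.624, 0.247 and 0.995 in fat-1 PF mice. The ratio was 0.465, 0.391 and 0.361 in WT EtOH mice and 0.385, 0.367, 3.56, 3.32 and 0.405 in fat-1 EtOH mice, where Dgat2 exceeded Dgat1 in replicates 3 and 4 only. The difference of the log2 ratio between fat-1 EtOH and fat-1 PF mice was 0.73 (exact two-sided permutation p = 0.476, adjusted 0.519). It turned to -0.53 without the libraries with large intestine markers (adjusted exact p = 0.514), where the mice left were too few for any exact p under 0.05.

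Plin2 (ENSMUSG00000028494, chr4:86648386-86670060) encodes perilipin 2, a protein that coats cytosolic lipid droplets. It was 84.6, 76.4, 69.98 and 74.0 CPM in WT PF, 92.2, 159, 84.3 and 185 CPM in fat-1 PF, 76.5, 77.9 and 67.0 CPM in WT EtOH and 75.3, 84.4, 215, 218 and 76.2 CPM in fat-1 EtOH mice. In 12 of the 16 mice it thus lay between 67.0 and 92.2 CPM, and the 4 mice above this range were replicates 2 and 4 of the fat-1 PF and fat-1 EtOH replicates 3 and 4. With all mice its log2 fold change on EtOH was 0.04 in fat-1 mice (95% interval -0.69 to 0.77) and -0.05 in WT mice (-0.89 to 0.79). Without the 3 libraries with large intestine markers Plin2 was the eighth member called lower in fat-1 EtOH mice (-0.70, adjusted p = 0.0362), and without all 5 libraries it was not called (-0.15, adjusted p = 0.354).

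Between the genotypes on the PF diet, all 10 members had a positive log2 fold change in fat-1 mice, with a median of 0.72 against 0.02 over all genes tested, and none passed edgeR's test, nor did any of the 13811 genes (0%). At an unadjusted p under 0.05 there were 2 members, Fabp1 and Dgat2, and 1758 of all genes (12.7%). These 2 were also the members that DESeq2 called higher, beside 1.25% of all genes (172), and limma voom called no member and 30 genes in all. Fabp1 was 6.28-fold higher in the fat-1 mice (log2 fold change 2.65, SE 0.85, adjusted p = 0.207) and Dgat2 2.52-fold (1.33, SE 0.35, adjusted p = 0.187). Both were highest in fat-1 PF replicates 2 and 4, and without these mice the fold changes were 0.99 and 0.34 and the median of the members was 0.29. Acsl3 was the member whose genotypes did not overlap on this diet, with every fat-1 PF mouse higher, as in 4.24% of all genes tested, against 2.62% in the other direction.

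On EtOH, no member passed edgeR's test between the genotypes, where 1 of all genes did (0.00724%), and 671 genes had an unadjusted p under 0.05. Of the members, 5 had a positive and 5 a negative fold change, with a median of -0.13. The median turned to 0.052 without the 3 libraries with large intestine markers and to 0.045 without all 5 libraries, and leaving out single mice gave -0.31 without fat-1 EtOH replicate 5 to -0.0018 without WT EtOH replicate 1. Plin2 was the member with an unadjusted p under 0.05 (log2 fold change 0.86, SE 0.38, adjusted p = 0.757), and its values overlapped between the groups. Fabp1 differed by 0.16 on the log2 scale (95% interval -1.68 to 2.00) and Dgat2 by 0.13 (-0.63 to 0.90). Neither DESeq2 nor limma voom called a member here. For the interaction, Dgat2 had the smallest unadjusted p of the members (-1.20, SE 0.49, adjusted p = 0.595), and 1141 of all genes had one under 0.05. DESeq2 and limma voom called no gene for it.

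**Figure D5:**
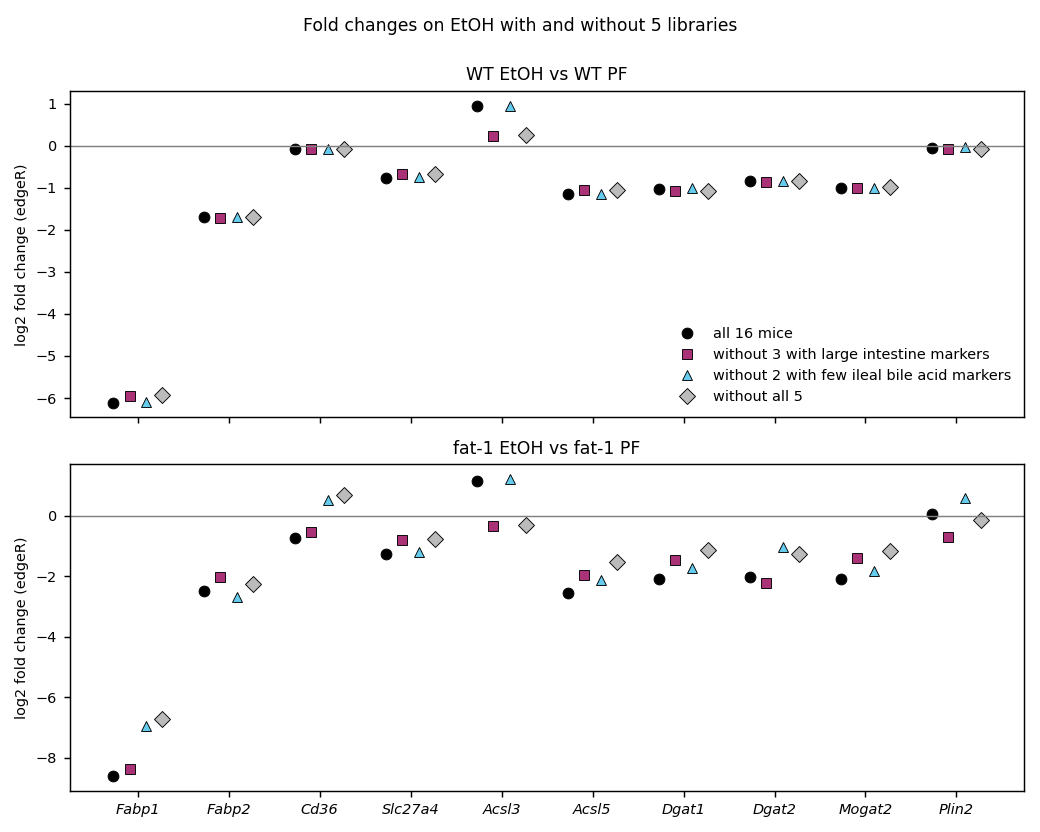
The log2 fold changes of the 10 genes on EtOH (edgeR) in WT mice (upper panel) and fat-1 mice (lower panel), with all 16 mice, without the 3 libraries with large intestine markers, without the 2 with few ileal bile acid markers and without all 5. Fabp1 stays at -5.94 or lower under each setting, while in fat-1 mice Cd36, Acsl3 and Plin2 each change sign under at least 1 of them.

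The plot of fold changes with and without these libraries shows how far the 7 genes that fell depend on them. In fat-1 EtOH mice 8 members were called lower without the 3 libraries with large intestine markers, the eighth being Plin2, where 15.8% of all genes tested were. Without the 2 fat-1 PF libraries with few ileal bile acid markers 4 were called (Fabp1, Fabp2, Acsl5 and Dgat2), where 7.95% of all genes were called lower, and Slc27a4, Dgat1 and Mogat2 were not. Without all 5 libraries, with 3 fat-1 EtOH and 2 fat-1 PF mice left, the 7 genes were called again, where 7.59% of all genes were called lower, and the median fold change over the 10 members was -1.15. Fabp1 was then -6.73 (adjusted p = 0.0181), Fabp2 -2.26 (adjusted p = 0.0129) and Acsl5 -1.53 (adjusted p = 0.0132). In WT EtOH mice the same fit called 4 members, Fabp2 (-1.70), Acsl5 (-1.05), Dgat1 (-1.07) and Mogat2 (-0.99), where 1.76% of all genes were called lower, and gave Fabp1 as -5.94 with an adjusted p of 0.0593.

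Other genes of the pathway moved in both directions. Of 65 genes in 6 lists (uptake and binding, activation, glycerolipid synthesis, lipid droplet, lipolysis, and regulators), 56 were tested. In fat-1 EtOH mice 20 of these fell (35.7%) and 9 rose (16.1%), beside the 18.8% and 18.7% of all genes tested, and their median log2 fold change was -0.02, against 0.05 over all genes. In WT EtOH mice 1 of the 56 was called (1.79%, beside 0.0796% of all genes), with a median of -0.09 against 0.01.

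Among the 10 uptake and binding genes tested, 3 fell and 2 rose in fat-1 EtOH mice. The largest fall was that of Slc27a2, the fatty acid transport protein FATP2 (log2 fold change -2.91, SE 0.45, adjusted p = 0.000501), and the largest rise that of Cav1, a coat protein of caveolae (1.28, SE 0.23, adjusted p = 0.00101). In WT EtOH mice Scp2, a sterol carrier protein, had the smallest p of this list (-0.78, SE 0.22, adjusted p = 0.178). Of the 4 activation genes tested, Acsl4 rose in fat-1 EtOH mice (1.10, SE 0.24, adjusted p = 0.0032) and none fell. It was also the one with the smallest p in WT EtOH mice (0.71, SE 0.27, adjusted p = 0.257).

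Of 13 glycerolipid synthesis genes tested, 6 fell and 3 rose in fat-1 EtOH mice. Soat2, which esterifies cholesterol in enterocytes, fell most (-2.38, SE 0.75, adjusted p = 0.0235), and Agpat4, an acyltransferase of the phosphatidic acid pathway, rose most (1.76, SE 0.50, adjusted p = 0.0136). Soat2 was 3.0 and 4.1 CPM in fat-1 EtOH replicates 3 and 4 and 81.8 to 97.3 CPM in the other EtOH-fed mice. The smallest p in WT EtOH mice was that of Gpat4 (0.49, SE 0.14, adjusted p = 0.183).

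Of 9 lipid droplet genes tested, 3 fell and 1 rose in fat-1 EtOH mice, led by Cideb (-1.60, SE 0.26, adjusted p = 0.000644), which takes part in lipid droplet and lipoprotein maturation, and Hilpda (1.20, SE 0.38, adjusted p = 0.0244), an inhibitor of triglyceride lipase. Of 7 lipolysis genes, 3 fell and 1 rose, led by Lipe, the hormone-sensitive lipase (-1.40, SE 0.32, adjusted p = 0.00427), and Mgll, the monoacylglycerol lipase (2.21, SE 0.58, adjusted p = 0.00908). Cideb (-0.65, SE 0.30, adjusted p = 0.353) and Lipe (-0.80, SE 0.37, adjusted p = 0.345) had the smallest p of these lists in WT EtOH mice. Mgll was 261 and 269.5 CPM in fat-1 EtOH replicates 3 and 4 and 33.4 to 65.6 CPM in the other EtOH-fed mice.

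Of the 13 regulators, 5 fell and 1 rose in fat-1 EtOH mice. Gata4, a transcription factor of the proximal small intestine, fell by 7.57 on the log2 scale (SE 0.61, adjusted p = 5.93e-05), and fell by 7.38 in WT EtOH mice (SE 0.80, adjusted p = 0.0027), where it was the 1 gene of these lists that passed. It was 25.6 to 156 CPM in PF mice and 0.0 to 1.1 CPM in EtOH-fed mice. Nr1h4, the bile acid receptor FXR, was the 1 regulator that rose in fat-1 EtOH mice (1.16, SE 0.44, adjusted p = 0.0496). On the PF diet no gene of the 6 lists was called between the genotypes, the smallest p being that of Dbi, the acyl-CoA binding protein (0.83, SE 0.18, adjusted p = 0.187). The genes with the smallest p of the other lists were Acsl6 (0.97), Agpat3 (1.14), Cidec (0.76), Lipa (0.80) and Srebf1 (0.79), with adjusted p of 0.187 to 0.408 and all with higher fitted levels in fat-1 PF mice. Between the genotypes on EtOH they were Slc27a1 (0.60), Acsl4 (0.63), Lpin2 (-0.40), Hilpda (0.95), Mgll (1.47) and Ppard (-0.26), each with an adjusted p of 0.757.

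The members fell into patterns that differed by mouse. Measured as the root mean square difference of log2 CPM centred on each gene's mean over the 16 mice, the closest pair of members was Acsl5 and Dgat1 (0.313), followed by Dgat1 and Mogat2 (0.410) and Acsl5 and Mogat2 (0.431). The next pair without these genes was Fabp2 and Slc27a4 (0.570). Acsl3 was closest to Plin2 (0.627), Cd36 also to Plin2 (0.783) and Dgat2 also to Plin2 (0.797). Fabp1 was the member farthest from the others, at 2.68 or more from each. These distances describe 16 mice that share 2 diets and the libraries that stood apart.

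By the same measure, the 3 genes nearest to each member among all genes tested were Slc23a1, Cyp2b10 and Enpp3 for Fabp1 (0.805 to 1.03), Ptgr1, C1qtnf12 and Smim24 for Fabp2 (0.319 to 0.381), and Tfg, Tubal3 and Sfxn1 for Slc27a4 (0.146 to 0.161). For Cd36 they were Fzd4, Pdgfb and Pdzd2 (0.373 to 0.461). Acsl5 lay nearest to Igsf23, Flvcr1 and Slc5a1 (0.210 to 0.250), and Dgat1 to Tmem86b, Spink1 and again Flvcr1 (0.203 to 0.234). Mogat2 lay nearest to Exoc3l4, Myrf and Tm6sf2 (0.170 to 0.230), and Dgat2 to Agpat3, Ckb and Cgref1 (0.282 to 0.316). The genes nearest to Acsl3 were Higd1a, Nceh1 and Tgoln1 (0.277 to 0.299), and those nearest to Plin2 were Ttyh1, Tmem139 and Fam114a1 (0.201 to 0.220). No gene came as near to Fabp1 as the third-nearest gene did to each of the other 9 members.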

How the data were processed

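RNA was isolated from the terminal ileum of 16 mice and sequenced as 1 stranded library per mouse. The deposited file holds raw counts of reads per Ensembl gene. Per the study's methods the authors aligned the reads to mm10 (GRCm38) guided by Ensembl transcripts. That htseq made the counts is given by the name of the deposited file alone, and its settings, strand included, were not given in the sources used here. The submitters' processing notes also name FastQC 0.10.1, Cufflinks and bcl2fastq. The counts were used as deposited. Totals per library ran from 8422645 to 11438539, and the lowest count of a member was 69. Of 21965 gene IDs, 26 had no symbol in the annotation. The 10 members and the lists of pathway and marker genes were chosen with earlier results of these data known, and the lists are thus no independent evidence of a direction.

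Library sizes were scaled by TMM, genes were filtered with filterByExpr, and all 16 mice entered 1 robust quasi-likelihood fit in edgeR 4.0.16 (R 4.3.3) with 6 comparisons. P-values were adjusted by the Benjamini-Hochberg method over the 13811 genes tested, with a threshold of 0.05, and standard errors are the absolute log2 fold change over the square root of F. Each p-value measures the spread between these mice. CPM are counts over the TMM-adjusted library size, and levels per kb divide them by the merged exon length. Log2 CPM in the distances between genes used a prior count of 2. Ratios of counts, with 0.5 added to each, were compared by exact two-sided permutation tests (scipy 1.17.1), adjusted over 12 tests. DESeq2 1.42.0 and limma 3.58.1 were alternatives, next to other scalings, filters at 1 and 10 counts, the replicate number as a block, fits of the 2 groups alone and leaving out each mouse. Leaving out the libraries that stood apart was chosen after the data were seen. The fit was tested on simulated data. All 10 members are named, with the 3 genes nearest to each, and from each pathway list the called genes with the largest changes in each direction on EtOH or, where none was called, the gene with the smallest p. The members share few or no 75-base windows with other genes, at most 3.11%, for Acsl5. Promoter windows are those of RefSeq on GRCm38.p6, and those of Dgat1, Dgat2 and Mogat2 were not used here.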

Additional observations from a re-analysis of the deposited data

Results flagged for a closer look

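In 1 of the 30 groups of 4 or 5 mice examined, a mouse lay far from the rest of its group for a member. Cd36 was 166 CPM in fat-1 EtOH replicate 5, and 39.1 to 68.1 CPM in the other 4 mice of that group, so that the gap to the nearest mouse was 0.771 of the range of the group, above Dixon's critical value of 0.71 for 5 samples. Chance alone gives about 1 such group in 20. The same mouse had the highest endothelial marker sum of all mice, 132 CPM, and the highest adipocyte and macrophage sums, 778 and 263 CPM. Their part in the Cd36 value was not tested.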

How the results depend on the processing

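Over the alternatives tried, other than leaving out single mice, between 4 and 8 members were called lower in fat-1 EtOH compared with fat-1 PF mice, 0 to 6 in WT EtOH compared with WT PF mice and 0 to 2 between the genotypes on PF, while the calls over all genes, in both directions, ran from 1626 to 5659, from 0 to 2853 and from 0 to 189. None was called between the genotypes on EtOH or for the interaction, and 6 to 8 were called for EtOH averaged over the genotypes (3373 to 5864 over all genes). In that comparison DESeq2 called 7 members lower and 1 higher, beside 19.2% and 19.7% of all genes. On PF, DESeq2 called 2 members between the genotypes, and leaving out single mice gave 0 to 1. For WT mice on EtOH, DESeq2 called 2, limma voom 6, the fit of the 2 groups alone 6 and the fit without all 5 libraries that stood apart 4, with 0 to 1 when single mice were left out (Fabp1 without WT PF replicate 4 or fat-1 PF replicate 3). In fat-1 EtOH mice 4 were called without the 2 libraries with few ileal bile acid markers. The cause was not tested. Each member had at least 69 counts in every mouse, and the part of depth in these calls was not tested.

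The median log2 fold change of the members moved from 0.72 between the genotypes on PF to 0.29 without the 2 libraries with few ileal bile acid markers and to 0.29 without all 5. In fat-1 EtOH mice it moved from -2.06 to -1.43 without the 3 libraries with large intestine markers, to -1.47 without the 2 with few ileal markers and to -1.15 without all 5. Between the genotypes on EtOH it changed sign, from -0.13 to 0.052 without the 3 and 0.045 without all 5. Changes of sign of single members were as follows, each in a comparison in which the member was not called with all mice. Cd36 between the genotypes on PF was -0.32 without the 2 libraries and -0.33 without all 5. For WT mice on EtOH, Cd36 was 0.072 with limma voom and -0.41 to 0.17 when single mice were left out, and Plin2 was 0.0029 with upper-quartile scaling, 0.063 with the replicate block and -0.089 to 0.017 when single mice were left out. In fat-1 EtOH mice Cd36 was 0.50 without the 2 libraries and 0.67 without all 5, Acsl3 was -0.35 without the 3 and -0.30 without all 5, and Plin2 was -0.55 with limma voom, -0.70 without the 3, -0.15 without all 5 and -0.19 to 0.26 when single mice were left out. Between the genotypes on EtOH, Fabp1 was -0.016 with the replicate block and -0.023 to 0.30 when single mice were left out. Cd36 was -0.24 with limma voom, -0.23 with the block and -0.20 to 0.60 when single mice were left out. Dgat1 was 0.057 and 0.051, Dgat2 -0.058 and -0.064, and Mogat2 0.090 and 0.084 without the 3 libraries and without all 5, and Dgat2 was -0.055 with limma voom and -0.0066 to 0.25 when single mice were left out. The log2 ratio of Acsl5 to Acsl3 between the genotypes on PF was -0.22 without the 2 libraries, -0.22 without all 5 and -0.065 to 0.25 when single mice were left out. That of Dgat2 to Dgat1 was -0.53 and -0.035 in fat-1 EtOH compared with fat-1 PF mice, and -0.089 and -0.089 between the genotypes on EtOH, without the 3 and without all 5. With the replicate block, 7 members were called lower in fat-1 EtOH mice and 0 in WT EtOH mice, as without it. Of all genes, 17.6% were then called lower in fat-1 EtOH mice and 0.0652% in WT EtOH mice. Same-numbered mice of different groups deviated from their group means with a mean correlation of -0.0225 (21 pairs, against 0.00703 for 74 other pairs). Single pairs with the same number ran from -0.252 to 0.187. The labels do not say what the number stands for.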
